A study of Mus musculus with 11 samples.

Results

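Healthy brain endothelium of Eltd1 knockout mice was compared with that of wild type mice through the RNA bound to endothelial ribosomes. The comparison took the 3 knockout and 3 wild type brain samples of a series of 11, and every gene with an FPKM (fragments per kilobase of transcript, scaled by the mapped fragments of the library) of at least 1 in 2 or more of these 6 libraries. This kept 14186 of 45808 genes. All mice were adult C57BL/6 animals without a tumour in the tissue taken. Every group, controls included, carried a transgene that places an eGFP-tagged ribosomal protein, L10a, under the VE-cadherin promoter, so the pull-down depends on where that promoter is active. The knockout is labelled Eltd1-/-, and the labels name no cell type to which the disruption is limited. The remaining samples of the series came from GL261 gliomas of wild type (n = 3) and knockout (n = 2) mice and are used below for the contrast of the genotype differences between tissues, for 1 alternative estimate of the spread, and for the levels of a few named genes. Replicates are separate mouse samples, and the replicate numbers only name them.

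Eltd1, now called Adgrl4, encodes an adhesion G protein-coupled receptor, a class of receptors with a long extracellular part that is often cleaved next to the membrane. It is known as a gene of endothelial cells and has been linked to the sprouting of new vessels. Endothelium of the brain forms the blood-brain barrier, in which tight junctions close the gaps between cells and dedicated carriers bring glucose and amino acids across.

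The stretch just before the start of Adgrl4 is shown because Adgrl4 is the gene disrupted, and that of Ifi44 because Ifi44 is its nearest tested neighbour and an interferon-inducible gene. Both are the 250 bases before the start in RefSeq (GRCm38.p6), at chr3:151437632-151437881 on the plus strand for Adgrl4 and chr3:151749911-151750160 on the minus strand for Ifi44, written 5′ to 3′ along the gene. Capitals mark GGAA, the core of the motif of ETS factors, in Adgrl4, and AANNGAAA, a motif of interferon regulatory factors, in Ifi44, each on either strand and with overlapping matches joined.
Adgrl4: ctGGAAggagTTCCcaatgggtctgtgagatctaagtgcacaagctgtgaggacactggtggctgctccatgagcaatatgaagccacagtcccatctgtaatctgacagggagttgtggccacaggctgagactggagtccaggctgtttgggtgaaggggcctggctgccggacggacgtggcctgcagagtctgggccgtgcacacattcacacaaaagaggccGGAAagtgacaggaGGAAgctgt
Ifi44: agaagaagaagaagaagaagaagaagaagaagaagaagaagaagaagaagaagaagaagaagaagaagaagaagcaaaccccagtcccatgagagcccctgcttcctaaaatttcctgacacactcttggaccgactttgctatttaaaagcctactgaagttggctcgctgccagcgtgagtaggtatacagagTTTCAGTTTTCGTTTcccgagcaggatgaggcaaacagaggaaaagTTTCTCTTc

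GGAA occurred 4 times in the Adgrl4 stretch, 2 of them within 23 bases of the start, and it occurs in 93.4% of the 32851 RefSeq stretches of the same kind. AANNGAAA occurred 3 times before Ifi44, 2 of these as overlapping matches that begin 55 and 48 bases before the start, and it occurs in 21.3% of all stretches. Longer forms were searched first and had no match in either sequence, and the short forms were chosen after that. The form CCGGAAG is held by 6.91% of all stretches. The share was 10.8% for the form CAGGAAG and 7.13% for the interferon form GAAANNGAA.

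The 6 libraries differed in how complete they were. Of 13061 genes seen in at least 4 of the 6, the share listed at 0 was 13.3% and 10.3% in wild type replicates 1 and 2 but 0.528% in wild type replicate 3, and from 1.26% to 3.28% in the knockouts. FPKM sums ran from 518297 to 602726, and the files hold no read counts, so the depth is unknown. Pearson correlations of log2(FPKM + 1) across genes, which are not independent replicates, were lowest between wild type replicates 1 and 2 (r = 0.736) and highest between wild type replicate 3 and knockout replicate 3 (r = 0.894). Ddx3y, a Y-linked gene, was present in 1 wild type and 2 knockout libraries. Exact zeros also occurred for mt-Atp8, a mitochondrial mRNA, in wild type replicates 1 and 3, while wild type replicate 2 held 334 FPKM. The mitochondrial mRNAs mt-Nd3, mt-Nd4l, mt-Co2 and mt-Co3 were at 0 in all 6 libraries. Whether a 0 is an estimate that failed was not tested.

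**Figure D1:**
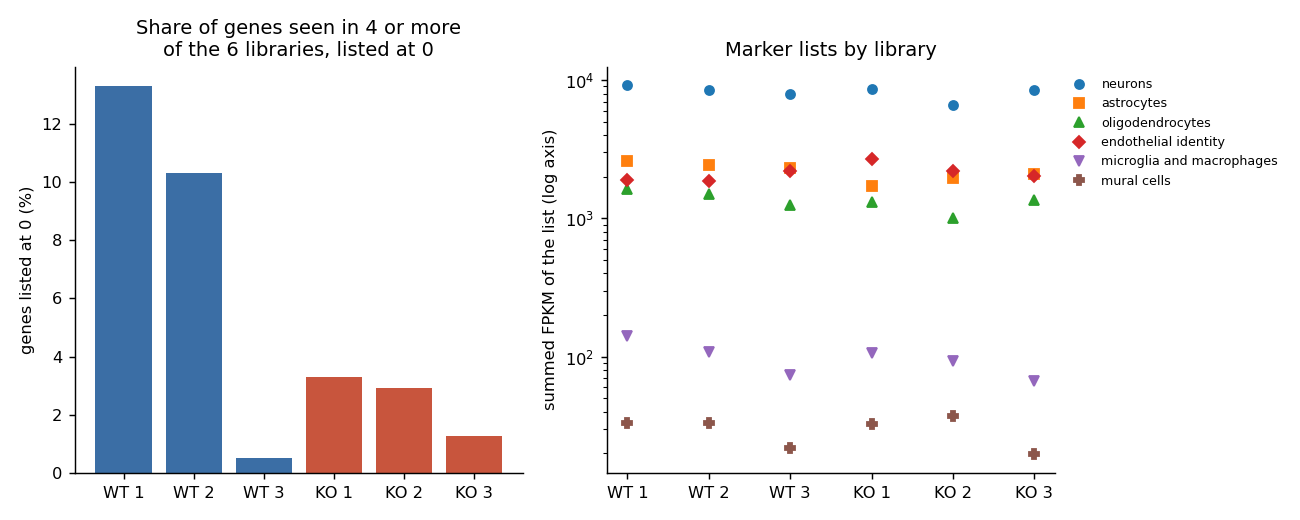
Left, bars give the percent of genes listed at 0 in each brain library, among genes seen in at least 4 of the 6. Right, points give the summed FPKM of the tested members of 6 marker lists in each library on a log axis. Wild type replicates 1 and 2 have the highest bars, at 13.3% and 10.3%. The astrocyte sums of the 3 knockouts lie below those of the 3 wild types, which for wild type replicate 2 depends on Gjb6 at 409 FPKM.

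The labelled cell type was checked against its markers. The endothelial genes Cldn5, from 319 to 566 FPKM, and Pecam1, from 181 to 451 FPKM, were high in every library. Transcripts of neurons were higher still: Snap25, a synaptic gene, ranged from 2457 to 3814 FPKM and was among the 10 highest genes. All 16 neuron markers were tested, and their summed level was 7950 to 9210 FPKM in wild type and 6570 to 8670 FPKM in knockout libraries. The 12 astrocyte markers summed to 2300 to 2620 FPKM in wild type and 1710 to 2090 FPKM in knockout libraries, without overlap. That lack of overlap depends on Gjb6 in wild type replicate 2, at 409 of the 2420 FPKM summed there. Gjb6 held 1.02 and 21.9 FPKM in the other wild types and 3.28 to 13.6 FPKM in knockouts. The oligodendrocyte markers summed to 1250 to 1630 FPKM in wild type and 1010 to 1360 FPKM in knockout libraries. Of 14 markers of mural cells, which wrap capillaries, 6 passed the filter on low values, and these summed to no more than 37.1 FPKM. Among those left out, only Cnn1 was at 0 in all 6 libraries. The others had low values in some libraries, at most 5.31 FPKM, for Higd1b in knockout replicate 3. The part of RNA from other cells in the results below was not tested, and in such bulk samples fewer cells of a type cannot be told apart from less RNA per cell.

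No gene separated knockout from wild type brain endothelium by the test across all genes. With limma and Benjamini-Hochberg adjustment over all tested genes, 0 genes passed an adjusted p of 0.05, a share of 0.0%, and the smallest adjusted p was 0.353. At an unadjusted p of 0.05 there were 623 genes (4.39%), of which 352 (2.48%) were higher and 271 (1.91%) lower in the knockout. Without wild type replicate 3 the number at this unadjusted level was 1162 and 2 genes with predicted or clone names passed the adjusted threshold, and without wild type replicates 1 and 2 it was 290, with 0 genes past it.

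A plainer description counts the genes whose 3 knockout values lie all above or all below the 3 wild type values. There were 715 such genes above (5.04%) and 598 below (4.22%). The share of genes above was 54.5% of these 1313, and it moved to 65.2% with upper quartile scaling, 63.6% with a common FPKM sum and 45.3% over genes above 0 in all 6 libraries. Of the 715 genes, 268 (37.5%) were listed at 0 in wild type replicate 1 or 2, and among the 598 there were 58 (9.7%) with a 0 in any knockout. Over the 10149 genes above 0 everywhere, 447 (4.4%) lay above and 540 (5.32%) below. Genes at 0 in all 3 wild types and above 0 in all 3 knockouts numbered 34, and 10 showed the opposite.

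**Figure D2:**
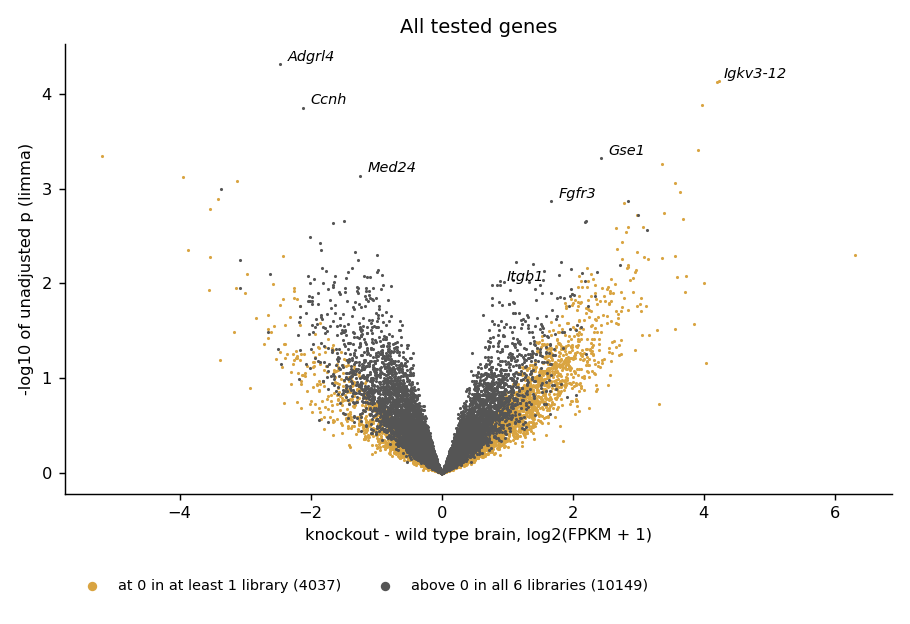
Each point is 1 of the 14186 tested genes, with the knockout minus wild type difference of log2(FPKM + 1) on the horizontal axis and -log10 of the unadjusted limma p on the vertical axis. Adgrl4 stands highest, and the points with a large positive difference are mostly genes listed at 0 in at least 1 library.

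Adgrl4 had the smallest p of all tested genes. It lies at chr3:151437882-151545081 (GRCm38). Wild type replicates 1 to 3 held 166, 82.7 and 153 FPKM and knockout replicates 1 to 3 held 21.6, 23.6 and 22.2 FPKM. The knockouts sat close together at 22.5 ± 1.03 FPKM (SD, n = 3), below every wild type library, while the wild types spread over 134 ± 45.0 FPKM (SD, n = 3). The knockout mean was 16.8% of the wild type mean, and the log2 difference was -2.46 (SE 0.33, adjusted p = 0.353). A two-sided exact permutation test of the mean log2 value gave p = 0.1, the smallest that 3 against 3 samples allow. Transcript of the gene was thus still recorded in each knockout, and a value per gene does not tell which exons it came from. By p, Adgrl4 ranked 12th without the variance trend, 20th without wild type replicate 3 and 25th when the spread was taken from all 11 libraries. In tumours its FPKM was 45.0, 192 and 27.4 in wild types and 11.5 and 5.82 in knockouts, and the test of the difference between the genotype effects in brain and tumour gave an adjusted p of 1.0 with limma.

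Genes beside a disrupted locus are inherited together with it, and these were looked at one by one. Within 2 Mb of Adgrl4 the files list 21 genes with it, and 13 of the others were tested. None had higher values in all knockouts and 1 (7.69%) had lower values in all, beside 5.04% and 4.22% of all tested genes. Their median log2 difference was -0.42, against 0.03 over all tested genes. Within 10 Mb, 59 others were tested, 1 (1.69%) lay above and 2 (3.39%) below, and their median was 0.01.

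Ifi44, an interferon-inducible gene 0.293 Mb from Adgrl4, held 55.0, 21.6 and 52.7 FPKM in wild types and 3.89, 25.7 and 7.40 FPKM in knockouts. Knockout replicates 1 and 3 were below every wild type, but knockout replicate 2 exceeded wild type replicate 2, so the groups overlapped. The log2 difference was -1.99 (SE 0.67, adjusted p = 0.975). In tumours the direction was the opposite. There Ifi44 stood at 94.83, 71.5 and 67.75 FPKM in wild types and at 104.3 and 146.5 FPKM in knockouts. Next to it, Ifi44l was listed at 0 in all 3 wild type brains and in knockout replicate 1, and at 2.25 and 2.18 FPKM in the other two knockouts. The same gene stood at 33.6 and 19.9 FPKM in the knockout tumours and at 0 in the 3 wild type tumours. Zzz3, which encodes a subunit of a histone acetyltransferase complex, was the neighbour without overlap: it held 96.0, 45.0 and 41.2 FPKM in wild types and 39.0, 28.1 and 26.9 FPKM in knockouts. Its lowest wild type and highest knockout values were close, and the log2 difference was -0.85 (SE 0.39, adjusted p = 0.975).

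**Figure D3:**
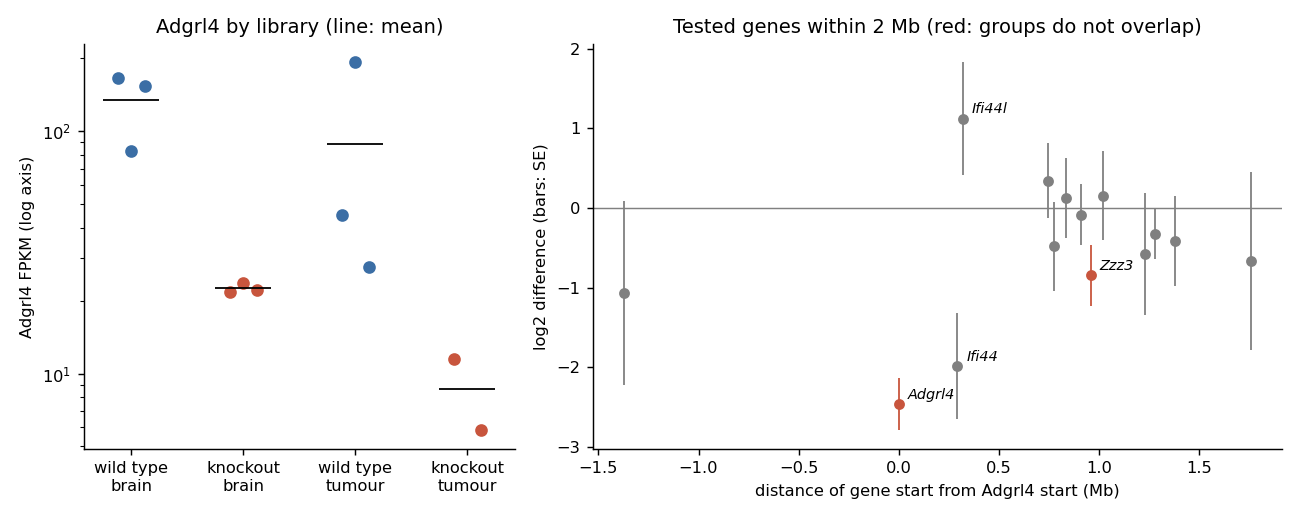
Left, Adgrl4 FPKM in each library of the 4 groups on a log axis, with the group mean as a line. Right, the knockout minus wild type brain log2 difference with its SE for each tested gene within 2 Mb, against the distance from Adgrl4. The 3 knockout brains cluster near 22.5 FPKM, and of the neighbours Ifi44 and Ifi44l lie farthest from 0.

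The genes below stand out by the size of p among genes that did not overlap between the groups, and none of them passed the adjusted threshold. After Adgrl4, the lower gene with the smallest p was Ccnh, which encodes cyclin H, a part of the general transcription factor TFIIH. It held 101, 109 and 85.8 FPKM in wild types and 21.4, 15.6 and 31.1 FPKM in knockouts. The groups were far apart, with a log2 difference of -2.12 (SE 0.33, adjusted p = 0.398). Med24, a subunit of the Mediator complex that links transcription factors to RNA polymerase II, held 310, 203 and 213 FPKM in wild types and 94.9, 99.8 and 104 FPKM in knockouts. The 3 knockouts were nearly equal, and the log2 difference was -1.25 (SE 0.24, adjusted p = 0.962).

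Cttn, the actin-binding protein cortactin, was at 228, 158 and 97.7 FPKM in wild types and 49.7, 45.7 and 67.2 FPKM in knockouts. Wild type replicate 3 came nearest to the knockouts, and the log2 difference was -1.49 (SE 0.35). Zfp322a, a zinc finger gene, was even within each group, at 28.0, 29.3 and 24.4 FPKM against 8.21, 8.19 and 7.34 FPKM. Csnk1g1, a casein kinase, had 49.9, 69.8 and 32.2 FPKM in wild types and 6.04, 20.1 and 11.3 FPKM in knockouts. Mzt2, a component of the gamma-tubulin complex, had 35.4, 23.6 and 27.3 FPKM in wild types and 4.20, 7.31 and 11.3 FPKM in knockouts. In these 3 genes every library was above 0.

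Other genes of this group were near or at 0 in some knockouts. Sumf2, related to the enzyme that activates sulfatases, held 51.8, 57.6 and 19.2 FPKM in wild types and 5.27, 1.72 and 0 FPKM in knockouts. Hemk1, a methyltransferase of mitochondrial release factors, held 28.5, 78.7 and 17.7 FPKM against 4.86, 0.963 and 2.49 FPKM. Mrpl54, a protein of the mitochondrial ribosome, held 52.8, 40.2 and 27.4 FPKM against 4.09, 6.96 and 0 FPKM. All 3 were thus low throughout the knockouts. Spi1, the transcription factor PU.1 of myeloid cells, was at 13.3, 24.5 and 7.22 FPKM in wild types and at 0, 0 and 1.49 FPKM in knockouts. Of 15 markers of microglia and macrophages, cells that use Spi1, 13 were tested. These summed to 74.0 to 142 FPKM in wild types and 66.2 to 106 FPKM in knockouts, and none separated the groups. Gemin4, which acts in the assembly of spliceosomal ribonucleoproteins, was at 10.1, 8.72 and 5.15 FPKM in wild types and under 0.01 FPKM in each knockout. In tumours Gemin4 was at 0.0198, 31.65 and 4.455 FPKM in wild types and at 0.00151 and 24.1 FPKM in knockouts.

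Among genes higher in the knockout, those seen in every library were Gse1, Recql, Fgfr3 and Casp2. Gse1, which codes for a coiled-coil protein of a histone demethylase complex, held 3.71, 6.14 and 6.95 FPKM in wild types and 44.2, 30.8 and 27.8 FPKM in knockouts. The lowest knockout was well above the highest wild type, and the log2 difference was 2.43 (SE 0.44, adjusted p = 0.846). Recql, a DNA helicase, held 3.09, 0.927 and 5.62 FPKM in wild types and 33.5, 29.2 and 17.7 FPKM in knockouts. Its log2 difference was 2.85 (SE 0.61). Casp2, a caspase, stood at 4.38, 0.649 and 8.79 FPKM in wild types and 32.8, 43.9 and 28.4 FPKM in knockouts, a log2 difference of 3.00 (SE 0.68). Wild type replicate 2 was the lowest library for both genes.

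Fgfr3, a fibroblast growth factor receptor that is also a marker of astrocytes, held 21.6, 17.3 and 11.1 FPKM in wild types and 47.1, 49.8 and 64.5 FPKM in knockouts. Its log2 difference was 1.67 (SE 0.36, adjusted p = 0.975). It stood apart in the astrocyte list, of which 10 of 12 members had a negative difference, the other positive one being S100b, and the median was -0.31. Aqp4, the water channel of astrocyte endfeet, held 27.5, 30.9 and 22.9 FPKM in wild types and 19.3, 24.8 and 22.8 FPKM in knockouts, which overlapped.

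The other genes of this group were listed at 0 in wild type libraries. Igkv3-12, an immunoglobulin segment, was at 0 in the 3 wild types and at 21.7, 13.7 and 17.4 FPKM in knockouts. Tpm3-rs7, a copy related to a tropomyosin gene, whose reads may be shared with that gene, was at 0 in the 3 wild types and at 17.9, 16.8 and 10.3 FPKM in knockouts. Slc7a7, an amino acid transporter subunit, was at 0 in the 3 wild types and at 9.12, 10.7 and 3.20 FPKM in knockouts. March3, a ubiquitin ligase, was also at 0 in all wild types and at 5.02 to 6.68 FPKM in knockouts. Chil1, a secreted chitinase-like protein, was at 0, 0 and 0.670 FPKM in wild types and at 15.8, 9.10 and 9.81 FPKM in knockouts. Thap3, Nkain4 and Ppapdc1b had a 0 in wild type replicate 1, and Thap3 and Nkain4 also in replicate 2. These are the 2 libraries with the most zeros, and the part of that in these values was not tested.

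**Figure D4:**
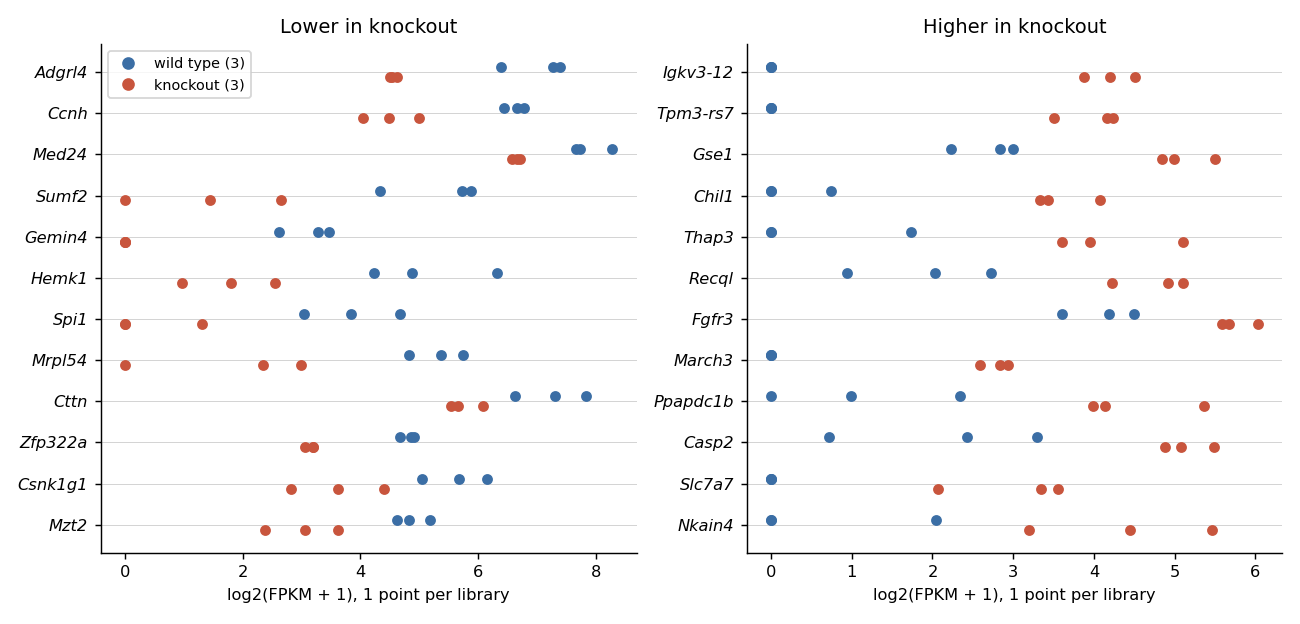
Points give log2(FPKM + 1) in each library for 12 lower and 12 higher genes, those of smallest p among genes that did not overlap between groups. Igkv3-12, Tpm3-rs7, March3 and Slc7a7 have all 3 wild type points at 0, while Adgrl4, Ccnh and Med24 are above 0 in every library.

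The genes with the highest levels did not separate the genotypes. All of the 10 highest, among them Actb, Eef1a1, Rpl13a and Bsg, overlapped between the groups. Bsg, a membrane partner of monocarboxylate transporters that marks brain endothelium, held 2265, 1709 and 2540 FPKM in wild types and 2682, 2727 and 2040 FPKM in knockouts. Its log2 difference was 0.20 (SE 0.25).

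The 27 gene lists that follow hold 509 different tested genes, of which 0 passed the adjusted threshold. Of these, 30 (5.89%) had all knockout values above the wild types and 15 (2.95%) all below, beside 5.04% and 4.22% of all tested genes. The counts of single lists below are to be read against the shares of all tested genes. For 11 of the lists the sign of the median differed between scalings.

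The adhesion receptors, the family of Adgrl4, had 17 of 24 members tested, with a median log2 difference of 0.05. Besides Adgrl4, Adgrg6 and Adgre1 did not overlap. Adgrg6 held 0, 1.03 and 0.546 FPKM in wild types and 2.73, 4.38 and 2.73 FPKM in knockouts, and Adgre1, a macrophage gene, did not exceed 1.51 FPKM. The closest relatives overlapped: Adgrl2 ranged from 15.9 to 27.2 FPKM in wild types and from 20.8 to 31.6 FPKM in knockouts. Adgrf5, an endothelial member, held 52.4, 38.2 and 47.9 FPKM in wild types and 69.7, 68.1 and 45.4 FPKM in knockouts. On the log2(FPKM + 1) scale no relative came near the size of the Adgrl4 difference, the largest among them being 1.53 for Adgrg6 (SE 0.64). That scale understates changes of low genes. As a share of the wild type mean, the knockout mean was 626% for Adgrg6 and 3495% for Adgre1, both at low levels.

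All 32 genes of endothelial identity were tested. Their median log2 difference was 0.26, from 0.26 to 0.35 over the scalings, beside 0.0 to 0.12 for all tested genes. It was 0.13 without wild type replicate 2, 0.17 without knockout replicate 2 and 0.05 without wild type replicates 1 and 2. Emcn, a sialomucin of capillary and venous endothelium, held 59.4, 51.4 and 51.9 FPKM in wild types and 121, 95.0 and 69.5 FPKM in knockouts. The lowest knockout was above the highest wild type, with a log2 difference of 0.77 (SE 0.28, adjusted p = 0.975). S1pr1, a sphingosine phosphate receptor that steadies the barrier, held 122, 104 and 117 FPKM against 155, 164 and 127 FPKM. Kdr, the main receptor of VEGF, was lower without overlap, at 23.5, 23.8 and 22.2 FPKM in wild types and 21.6, 17.4 and 17.8 FPKM in knockouts. That gap was small against its SE, with a log2 difference of -0.29 (SE 0.34). Cdh5, which encodes VE-cadherin and whose promoter drives the transgene, held 27.6, 29.3 and 36.7 FPKM in wild types and 56.4, 36.6 and 25.8 FPKM in knockouts, so the groups overlapped.

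The list of blood-brain barrier transporters also holds genes that are not carriers, such as Spock2 and Insr. All 30 members were tested, 5 of them above the wild types in every knockout and none below. Of all tested genes, 5.04% lay above and 4.22% below. The median log2 difference of the whole list was 0.17, from 0.17 to 0.28 over the scalings, beside 0.0 to 0.12 for all tested genes. It was 0.10 without wild type replicate 2, 0.11 without knockout replicate 1 and 0.08 without wild type replicates 1 and 2. Slc2a1, the glucose carrier GLUT1, held 226, 162 and 254 FPKM in wild types and 267, 358 and 267 FPKM in knockouts. Wild type replicate 3 was just below the lowest knockout, and the log2 difference was 0.48 (SE 0.25, adjusted p = 0.975). Slc3a2, the heavy chain of amino acid carriers, held 46.5, 23.8 and 47.7 FPKM against 52.7, 58.2 and 50.5 FPKM, while its light chain partner Slc7a5 held 165, 114 and 152 FPKM against 108, 126 and 121 FPKM and overlapped. Spock2, a proteoglycan high in brain endothelium, was the most even of the 5, with 421, 383 and 425 FPKM against 480, 507 and 468 FPKM. Insr, the insulin receptor, and Abca1, a cholesterol exporter, were the other two, at 10.5 to 12.9 against 14.5 to 18.7 FPKM and at 3.19 to 6.78 against 7.11 to 8.53 FPKM. Abcg2, a drug exporter, and Mfsd2a, a lysolipid carrier that holds down transcytosis, had larger differences of 1.03 (SE 0.50) and 0.95 (SE 0.48) but overlapped.

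None of the 15 tested tight junction genes separated the groups. Cldn5, the main claudin of the barrier, held 437, 319 and 393 FPKM in wild types and 423, 566 and 331 FPKM in knockouts. Ocln, occludin, held 51.8, 44.8 and 63.8 FPKM against 41.4, 74.2 and 38.3 FPKM. Of 15 tested genes of caveolae and transcytosis, Cltc, the clathrin heavy chain, was the one without overlap, at 94.5, 95.3 and 93.9 FPKM in wild types and 149, 130 and 111 FPKM in knockouts. The 3 wild types were nearly equal, and the log2 difference was 0.45 (SE 0.23). Plvap, a protein of leaky vessels, was at 0 in all wild types and at 1.37, 0 and 1.24 FPKM in knockouts, so the groups overlapped.

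Among the signalling pathways of vessels, Wnt/beta-catenin had 2 of 25 tested genes above the wild types and none below. Ppard, a nuclear receptor, held 38.6, 16.2 and 31.0 FPKM in wild types and 55.2, 55.4 and 46.4 FPKM in knockouts, with a log2 difference of 0.93 (SE 0.37). Rnf43, an inhibitor of Wnt receptors, was low, at no more than 0.958 FPKM in wild types and from 1.10 to 5.62 FPKM in knockouts. The usual target genes overlapped, Axin2 at 36.4 to 87.1 FPKM in wild types and 40.3 to 43.5 FPKM in knockouts, and Lef1 at 52.0 to 88.4 and 64.1 to 87.9 FPKM.

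In the Notch pathway 19 genes were tested, with a median of -0.01. Notch4, the endothelial Notch receptor, held 84.0, 19.6 and 11.5 FPKM in wild types and 7.49, 11.4 and 6.26 FPKM in knockouts. Wild type replicate 1 stood far above the rest, and wild type replicate 3 was barely above the highest knockout. Its log2 difference was -1.61 (SE 0.70). Notch2 and the ligand Jag2 were higher in all knockouts, by 0.61 (SE 0.59) and 0.56 (SE 0.47) on the log2 scale. Dll4, the ligand of sprouting tip cells, held 17.1, 4.08 and 6.99 FPKM against 3.40, 11.8 and 5.07 FPKM and overlapped.

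The VEGF and angiopoietin axis had 14 tested genes, of which Kdr alone did not overlap. Vegfa held 10.4, 26.2 and 11.7 FPKM in wild types and 18.1, 18.1 and 50.9 FPKM in knockouts, and Flt1, a decoy receptor, 142, 69.7 and 102 FPKM against 144, 141 and 98.2 FPKM. Among 23 tested tip cell and sprouting genes, Lamb1, Col4a1 and Trp53i11 were above the wild types, with differences of 1.57 (SE 0.75), 0.38 (SE 0.39) and 0.49 (SE 0.39). The median of that list was -0.01. None of 18 arterial genes separated the groups, and Ephb4, the receptor of venous endothelium, was the one of 14 venous genes that did.

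Guidance genes had 4 of 27 tested members above the wild types and none below, with a median of -0.01. Efna1 held 6.09, 17.4 and 10.6 FPKM in wild types and 21.7, 31.4 and 17.4 FPKM in knockouts. Knockout replicate 3 and wild type replicate 2 were almost level, and the log2 difference was 1.05 (SE 0.49). Efnb1, another ephrin ligand, had a difference of 1.52 (SE 0.73), Ephb4 of 0.46 (SE 0.45) and Sema6d, a semaphorin, of 0.15 (SE 0.33).

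Matrix and its receptors had 27 tested genes, 3 above and 1 below. Itgb1, the beta 1 integrin that binds laminin and collagen, held 32.7, 33.6 and 32.0 FPKM in wild types and 55.6, 71.5 and 58.0 FPKM in knockouts. The wild types were nearly equal and every knockout was clearly higher, with a log2 difference of 0.88 (SE 0.27, adjusted p = 0.975). Col4a1, a collagen of the basement membrane, held 12.9, 11.4 and 13.8 FPKM against 17.1, 16.6 and 16.4 FPKM. Lama4, a laminin chain of endothelium, was lower, at 2.31, 3.40 and 7.10 FPKM against 2.19, 1.66 and 2.12 FPKM. In TGF-beta and BMP signalling, with 29 tested genes, Bmpr1a, a BMP receptor, was the one without overlap, at 4.75, 6.32 and 5.24 FPKM in wild types and 32.9, 8.65 and 25.4 FPKM in knockouts.

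**Figure D5:**
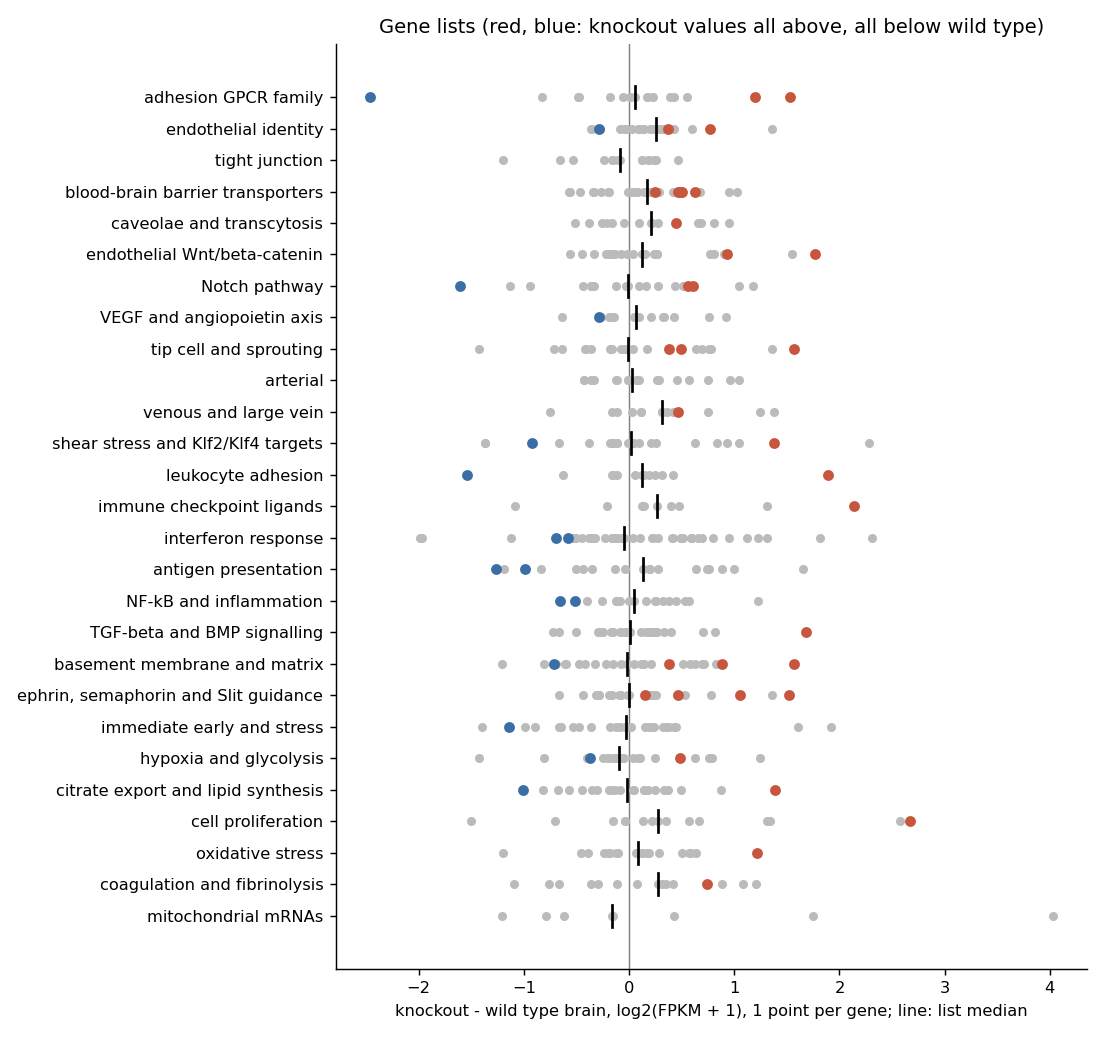
Each grey point is the knockout minus wild type brain log2 difference of 1 tested gene of a list, red and blue points are genes whose knockout values lie all above or all below the wild types, and the black line is the list median. Medians run from -0.16 for mitochondrial mRNAs to 0.31 for venous genes, and most members lie within the overlap of the groups.

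Interferon response genes had 45 members tested, 0 above and 2 below the wild types, with a median of -0.05. Gbp7, a guanylate-binding protein, held 12.8, 12.4 and 14.5 FPKM in wild types and 9.66, 6.58 and 7.34 FPKM in knockouts. Ifit1 held 19.2, 15.5 and 17.5 FPKM against 6.47, 14.7 and 14.6 FPKM, with 2 knockouts close to the lowest wild type. Dhx58, an RNA sensor, held 33.7, 25.6 and 4.58 FPKM against 4.10, 4.69 and 1.96 FPKM and overlapped, as did Irf7 at 9.79, 22.7 and 20.4 FPKM against 33.8, 17.0 and 28.5 FPKM. In antigen presentation, 19 genes were tested, 0 were above and 2 below. Psmb9, a subunit of the immunoproteasome, held 52.1, 29.3 and 31.8 FPKM in wild types and 22.7, 10.2 and 13.4 FPKM in knockouts, a log2 difference of -1.26 (SE 0.42, adjusted p = 0.975). Tap2, a peptide transporter, held 10.6, 8.79 and 15.1 FPKM against 4.31, 4.40 and 7.14 FPKM. The class I gene H2-K1 overlapped, at 47.4, 31.9 and 62.3 FPKM against 64.5, 99.0 and 56.4 FPKM.

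NF-kB and inflammation genes had 19 tested, 0 above and 2 below. Birc3, a target that limits cell death, held 33.3, 51.9 and 32.0 FPKM in wild types and 21.6, 25.4 and 24.7 FPKM in knockouts. Nfkb1 held 29.6, 47.6 and 25.2 FPKM against 22.3, 22.4 and 23.7 FPKM. For both genes wild type replicate 2 was the highest library and the 3 knockouts were close together. Among 13 tested leukocyte adhesion genes, Cd44 was above and Selplg below, both under 8 FPKM in every library. Of 9 tested checkpoint ligands, Vsir, which encodes VISTA and is listed under an older name, held 1.79, 9.66 and 3.57 FPKM in wild types and 30.6, 17.0 and 19.3 FPKM in knockouts. Its log2 difference was 2.13 (SE 0.62, adjusted p = 0.975).

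Metabolic and stress genes lay without overlap in single cases, beside 5.04% above and 4.22% below among all tested genes. None passed the adjusted threshold. In hypoxia and glycolysis, 26 tested genes had a median of -0.10, with Slc2a1 above and Aldoa below. Aldoa, a glycolytic aldolase, held 1925, 1576 and 1663 FPKM in wild types and 1334, 1170 and 1479 FPKM in knockouts, a log2 difference of -0.38 (SE 0.21). In citrate export and lipid synthesis, 22 genes were tested and 2 enzymes of cholesterol synthesis went opposite ways. Sqle held 9.69, 2.39 and 10.5 FPKM in wild types and 13.8, 16.6 and 27.6 FPKM in knockouts, and Cyp51 held 47.3, 26.9 and 29.7 FPKM against 8.85, 18.8 and 25.1 FPKM. Acly, which makes cytosolic acetyl-CoA from citrate, held 338, 210 and 112 FPKM against 99.5, 97.1 and 199 FPKM and overlapped.

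Gclm, a subunit of the enzyme that limits glutathione synthesis, was the one of 21 oxidative stress genes without overlap. It held 27.9, 89.1 and 109 FPKM in wild types and 148, 163 and 146 FPKM in knockouts, and wild type replicate 1 was lowest by far. Its log2 difference was 1.22 (SE 0.47). Serpine2, a protease inhibitor, was the one of 15 coagulation genes, at 74.4, 60.0 and 63.8 FPKM against 95.7, 168 and 84.9 FPKM. Cdk1, a kinase of dividing cells, was the one of 15 tested proliferation genes, at 0, 0 and 0.514 FPKM in wild types and 5.61, 12.5 and 3.34 FPKM in knockouts. Of 28 immediate early and stress genes Gadd45b was the one, at 14.4, 22.5 and 10.2 FPKM against 5.40, 5.22 and 8.40 FPKM. In the shear stress list, with 23 tested, Cd59a, which shields cells from complement, was lower at 30.4, 27.1 and 19.0 FPKM against 15.6, 13.0 and 10.1 FPKM, and Pi16 was at 0 in all wild types and from 1.00 to 2.93 FPKM in knockouts. None of the 8 tested mitochondrial mRNAs separated the groups.

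The genotype difference in brain was finally set against that in tumour, from libraries that the brain comparison does not share. In a fit to all 11 libraries, 1 gene (0.00705%) passed an adjusted p of 0.05 for the difference between the genotype effects, and 425 had an unadjusted p below 0.05. That gene, Cox4i1, a subunit of cytochrome c oxidase, lies in a run of 52 neighbouring expressed genes on chromosome 8 that all stood at 0 in replicates 1 and 3 of the wild type tumours. Without the genes of that interval, 0 passed (limma, smallest adjusted p = 0.986) and 398 had an unadjusted p below 0.05. Of the 1313 genes without overlap in brain, 204 also had no overlap in tumour. This is 15.5% of the brain genes and 9.33% of the 2187 tumour genes, where 15.4% of all tested genes had no overlap with 2 against 3 samples. Of the 204, 109 differed the same way in both tissues and 95 the opposite way.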

How the data were processed

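Per the file headers, the values deposited are FPKM. TopHat2 2.1.1 and Cufflinks 2.2.1 with GRCm38 are named in the submitters' processing notes, while annotation and strand use in counting are not given in the sources used. Overlapping and antisense genes and near-identical copies are therefore uncertain. Ribosomes were pulled down with anti-GFP beads, ribosomal RNA was depleted and a stranded kit was used on RNA of an integrity number above 7, per the labels' protocols. Of 46073 entries per library, the 474 entries of 209 repeated symbols were summed, which left 45808 genes. Genes reaching 1 FPKM in 2 or more of the 6 brain libraries were tested on log2(FPKM + 1), without further scaling, a scale that understates changes of low genes. Limma 3.58.1 in R 4.3.3 (lmFit, eBayes with variance trend, 3 against 3) gave two-sided p-values, adjusted by Benjamini-Hochberg over all tested genes with a threshold of 0.05. The fit across both tissues used the 4 group means of all 11 libraries. The fit was also run on artificial data with known changes. The condition checked was that their mean size was recovered, which does not test the number of genes called in brain.

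The text names Adgrl4 and its neighbours within 2 Mb, the 12 genes of smallest p in each direction among those that did not overlap and had a mean of at least 5 FPKM in the higher group, 2 to 4 members of each list by p with its best known members, and the 10 genes of highest mean. Predicted genes, clones, pseudogenes and small RNAs were counted but not named. The comparison, the 27 gene lists, the 10 marker lists and the naming rule were chosen with earlier results of these data known, and lists share genes. Alternatives were other pseudocounts, filters, scalings and variance models, library weights, covariates, and leaving out libraries. Chosen later, with the data in view, were the removal of wild type brain replicates 1 and 2 together, the share of zeros as a covariate, and the removal of the chromosome 8 interval. Named genes without overlap were followed through these settings. Promoter sequences and positions came from RefSeq tables of the same build.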

Additional observations from a re-analysis of the deposited data

Results flagged for a closer look

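Of the named genes, 9 had no overlap between genotypes in either tissue and differed in opposite directions in brain and tumour. The log2 difference in brain minus that in tumour was 4.93 for Thap3, a zinc finger gene, 3.66 for Recql, 2.23 for Gclm and 0.71 for Cltc, which were higher in knockout brain and lower in knockout tumour. It was -2.68 for Cyp51, -2.06 for Tap2, -1.82 for Psmb9, -1.51 for Fbln1, a fibroblast marker, and -1.41 for Zzz3, which were lower in knockout brain and higher in knockout tumour. Each of the 9 had an adjusted p of 1.0 in the limma test of that difference. Of all tested genes, 95 had no overlap in both tissues in opposite directions and 109 in the same direction.

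Thap3 held 0, 0 and 2.34 FPKM in wild type brains and 33.4, 14.5 and 11.2 FPKM in knockout brains, and 7.51, 33.1 and 8.07 FPKM in wild type against 3.57 and 6.02 FPKM in knockout tumours. Recql stood at 43.1, 64.4 and 85.3 FPKM in wild type and 32.7 and 37.2 FPKM in knockout tumours. Gclm stood at 74.7, 52.8 and 56.8 FPKM in wild type and 30.3 and 28.8 FPKM in knockout tumours. For these 3 genes the brain groups were farther apart than the tumour groups on the log2 scale. Psmb9 stood at 102, 66.6 and 99.2 FPKM in wild type and 123 and 136 FPKM in knockout tumours. Cyp51 stood at 18.7, 3.20 and 17.6 FPKM in wild type and 39.5 and 32.4 FPKM in knockout tumours. Zzz3 stood at 34.8, 32.1 and 33.0 FPKM in wild type and 45.1 and 54.9 FPKM in knockout tumours. Fbln1 was low throughout, at no more than 4.36 FPKM in any library.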

How the results depend on the processing

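The number of genes past the adjusted threshold in brain was 0, and it ranged from 0 to 2 when each library was left out in turn; with the spread taken from all 11 libraries it was 1, a predicted gene. Without wild type replicate 2 the gene was mt-Atp8. It was listed at 0 in wild type replicates 1 and 3 and at 334 FPKM in replicate 2. Knockouts held 102, 96.7 and 145 FPKM. The log2 difference of Adgrl4 lay between -2.78 and -2.28 when each library was left out and stayed short of the threshold in all 23 alternatives. The genotype difference between tissues gave 15 genes with wild type tumour replicate 1 as the only wild type tumour. Of these, 11 lie in the chromosome 8 interval listed at 0 in that library. No conclusion is drawn from this count, because only 1 wild type tumour library is left. In the fit to all 11 libraries without the genes of that interval, 0 genes passed the adjusted threshold. The 60 named genes without overlap kept their direction in every alternative run, which the choice of such genes largely fixes. List medians are less fixed: without wild type replicates 1 and 2 the interferon median was -0.41 in place of -0.05 and that of antigen presentation -0.37 in place of 0.13. No paired analysis was possible because the replicate numbers only name the samples and pair none across genotypes. Read depth is unknown, and 3 samples a group limit the precision.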
